A study of Bos taurus with 4 samples.

Results

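The genes described here encode the subunits of the serine/threonine protein phosphatases PP1, PP2A, calcineurin (PP3), PP4, PP5 and PP6, together with the dual-specificity phosphatases (DUSP). They were taken by gene symbol, as every named gene on the array whose symbol begins with 1 of 7 stems (PPP1 to PPP6 and DUSP), other than PPP1R3C, which the rule leaves out. The rule found 42 of the 7788 named genes, and 39 of the 42 had a probe that was kept, that is, 1 channel stood well above background on 3 or 4 of the 4 arrays. DUSP21, DUSP9 and PPP3R2 did not, and have no further values. The 39 measured genes comprised 17 of PP1, 9 of PP2A, 3 of calcineurin, 4 of PP4 to PP6 and 6 DUSP genes. The symbol was the basis of the choice, and no measured value entered the rule, although earlier results of these data were known when it was set.

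Semitendinosus muscle of Limousin bulls (LIM, a beef breed, n = 4) was compared with that of Holstein-Friesian bulls (HF, a dairy breed, n = 4), all untreated and slaughtered at 15 months of age, on 4 two-colour bovine oligonucleotide arrays. Each array carried total RNA of 1 LIM bull labelled with Cy5 and of 1 HF bull labelled with Cy3. The dyes were never exchanged, and the effect of breed on any value below cannot be told apart from that of the dye. The Hereford bulls of the same study are not analysed here.

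A protein phosphatase removes the phosphate that a kinase has placed on serine, threonine or tyrosine. PP1 and PP2A each have few catalytic subunits, and a large set of regulatory subunits decides where the enzyme sits and what it dephosphorylates. In muscle, PP1 on glycogen particles switches on glycogen synthase, PP1 on myosin relaxes smooth muscle, and calcineurin, the calcium-activated enzyme, dephosphorylates NFAT and takes part in the setting of fibre type. The inducible DUSP genes are switched on by stress and growth signals and turn off MAP kinases, whereas the atypical DUSP enzymes are a mixed group, some of which act on substrates other than MAP kinases.

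Values are log2 ratios of LIM over HF on each array, after background correction and intensity-dependent (loess) normalisation, so that 1 unit is a doubling and a value above 0 means more signal in LIM. Beside each mean stands the moderated standard error from limma, with the p-value adjusted by Benjamini-Hochberg over all 15855 probes kept, and a gene was called where that adjusted p was under 0.05. The signals of the 2 channels are log2 fluorescence and were compared within a probe only. Precision is limited by the 4 arrays. These correlated with each other at 0.40 to 0.60 across probes, the LIM channel had 32513 to 33527 of the 42990 spots per array well above background and the HF channel 27102 to 28769, and no spot was saturated. The tissue label was checked on 14 muscle genes (among them ACTA1, CKM, DES and the myosin heavy chains), and all 14 were well above background in both channels. These are homogenates, in which fewer cells of a type and less RNA per cell cannot be told apart.

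Across the phosphatase genes, 2 of 39 were higher in LIM (PPP2R5E and PPP2CB, both of PP2A) and 0 were lower by limma, which is 5.13% of the members. Among all 6376 named genes with a kept probe, 5.93% were called (2.78% higher and 3.15% lower), so the members were called about as often as any gene. At an unadjusted p under 0.05 there were 11 members (28.2%) against 28.9% of all genes. The sign was the same on all 4 arrays for 13 members (6 higher and 7 lower, 33.3%), against 36.2% of all genes. The LIM and HF signals did not overlap for 7 members (17.9%), against 17.0% of all genes. The median ratio of the members was −0.015, beside 0.003 for all genes, and on single arrays it lay between −0.04 and 0.02. The mean ratio was within 0.25 of 0 for 28 of the 39 genes and beyond 0.5 for 8, of which 3 were above and 5 below 0. For 23 genes the 95% confidence interval lay wholly within a 1.5-fold change in either direction.

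**Figure D1:**
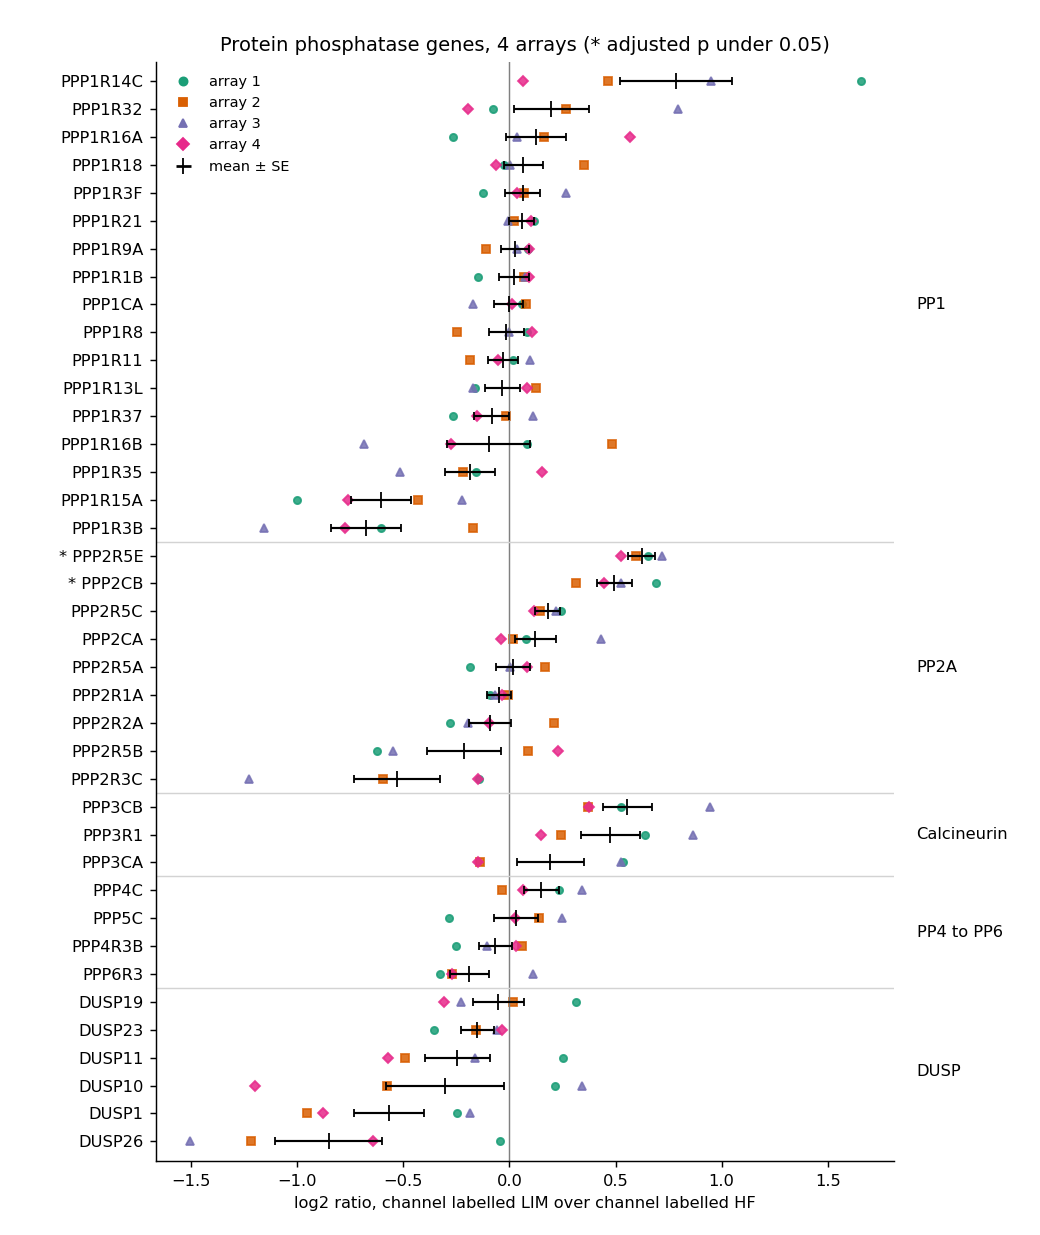
Log2 ratio of LIM over HF on each of the 4 arrays (points) and their mean ± moderated SE (bars) for the 39 measured phosphatase genes, grouped by enzyme. PPP2R5E and PPP2CB, the 2 genes that passed the test, have all 4 arrays above 0, at 0.52 to 0.72 and 0.31 to 0.69.

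The PP2A genes held both calls. PPP2R5E, a B56-type regulatory subunit that guides PP2A to its substrates, was 1.54-fold higher in LIM. Its log2 ratios were 0.65, 0.60, 0.72 and 0.52 on arrays 1 to 4. All 4 arrays lay above 0 within a narrow span, and the LIM signals (11.11 to 11.55) did not overlap those of HF (10.52 to 10.83). The mean ratio was 0.62 ± 0.06 (SE, n = 4; limma adjusted p = 0.0222; 95% confidence interval 0.46 to 0.78). The ratio is taken as Cy5 over Cy3, as the labels give the dyes, and for PPP2R5E, the only member named in the lists of the study, this direction is opposite to the one given there. Higher in LIM therefore means, throughout, higher in the channel labelled LIM, and with the dyes read the other way every ratio would change sign and every count of higher and lower would change places. PPP2CB, one of the paired genes for the catalytic subunit, was 1.41-fold higher in LIM, with ratios of 0.69, 0.31, 0.53 and 0.45. Again the channels were apart, with LIM at 11.98 to 12.27 and HF at 11.53 to 11.71. Its mean was 0.49 ± 0.08 (SE, n = 4; limma adjusted p = 0.0413; 95% confidence interval 0.29 to 0.70). Neither call held with any 1 of the 4 arrays left out, when the adjusted p of PPP2R5E was 0.0635 to 0.0890 and that of PPP2CB 0.0847 to 0.135, while their ratios stayed between 0.59 and 0.66 and between 0.43 and 0.55. With an array left out few probes of any gene passed. The counts were 0 without array 1, 2 or 4, and 15 higher and 36 lower without array 3. The loss of the 2 calls is therefore not particular to PPP2R5E and PPP2CB. With all 4 arrays, PPP2CB missed the threshold with the scanner's own processed signals (limma adjusted p = 0.0724).

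The other 7 measured PP2A genes did not pass the test. PPP2CA, the second catalytic gene, had ratios of 0.08, 0.02, 0.43 and −0.04 and a mean of 0.12 ± 0.10 (SE, n = 4; limma adjusted p = 0.475). Its array 3 was high and the rest were near 0. PPP2R1A, the scaffold on which the enzyme is assembled, lay within −0.09 to −0.01 on every array. PPP2R5C, a further B56 subunit, was slightly above 0 on all 4 arrays, at 0.24, 0.14, 0.22 and 0.12, with a mean of 0.18 ± 0.06 (SE, n = 4; limma adjusted p = 0.134). A second probe of PPP2R5C gave 0.09 (adjusted p = 0.481) and was below 0 on array 1. PPP2R5B, also of the B56 type, split the arrays, with −0.62 and −0.55 on arrays 1 and 3 and 0.09 and 0.23 on arrays 2 and 4. The widest ratio below 0 among the PP2A genes was that of PPP2R3C, a B″-type regulatory subunit, at −0.15, −0.60, −1.23 and −0.15. Every array was below 0 and the signals did not overlap (LIM 7.12 to 7.77, HF 7.86 to 8.35), but the arrays spread widely and the mean was −0.53 ± 0.20 (SE, n = 4; limma adjusted p = 0.171). PPP2R5A and PPP2R2A had means of 0.02 and −0.09. The median over the 9 PP2A genes was 0.02.

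**Figure D2:**
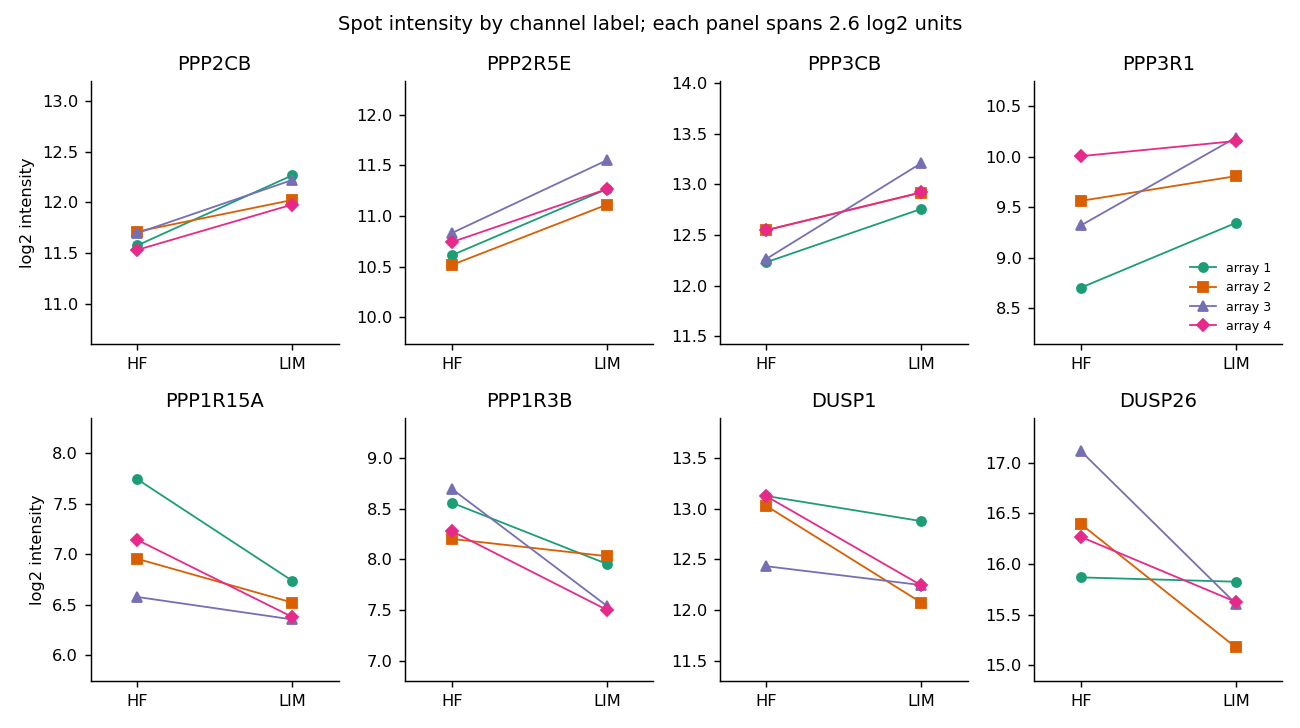
Log2 intensity in the HF (Cy3) and LIM (Cy5) channel after normalisation for 8 of the phosphatase genes, with a line joining the channels of each of the 4 arrays. The LIM points lie above the HF points without overlap for PPP2CB, PPP2R5E and PPP3CB, below them without overlap for PPP1R3B and DUSP26, and overlap with them for PPP3R1, PPP1R15A and DUSP1.

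Around PP2A, 4 genes of regulators and partners were measured, and 2 were higher in LIM and 0 lower. PPME1, the methylesterase that takes the methyl group off the PP2A catalytic subunit, had ratios of 0.95, 0.57, 1.04 and 1.08, all far above 0. Its mean was 0.91 ± 0.10 (SE, n = 4; limma adjusted p = 0.0239). ARPP19, which once phosphorylated inhibits PP2A bound to a B55 subunit, had ratios of 0.57, 0.28, 0.42 and 0.64 and a mean of 0.48 ± 0.08 (SE, n = 4; limma adjusted p = 0.0439). LCMT1, the methyltransferase that opposes PPME1, was near 0 with a mean of 0.03, and the inhibitor ANP32A had a mean of −0.21; neither passed. Of 6 phosphatases of the separate, metal-dependent PPM family, 1 was higher and 0 lower. This was PPM1A, at 1.04, 0.44, 0.54 and 0.59 with a mean of 0.65 ± 0.12 (SE, n = 4; limma adjusted p = 0.0447), and it too is given by the study in the opposite direction. PPM1B and PPM1L were above 0 on all 4 arrays, with means of 0.44 and 0.37, and did not pass. PPM1K, a mitochondrial member, had ratios of −0.68, −0.47, −1.04 and 0.25 with a mean of −0.48 and did not pass either, and PDP2 and PPTC7 had means of 0.06 and 0.16.

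None of the 3 measured calcineurin genes passed the test by limma, and 2 had an unadjusted p under 0.05. The call depended on the centring, since all 3 passed as higher with each array centred on its median (adjusted p = 0.0201 to 0.0365), where the median of all genes moved to 0.35 and that of the 3 genes stood 0.69 above it, and all 3 passed when centred on the probes kept (adjusted p = 0.0161 to 0.0384). Those centrings also raised the number of probes of any gene past the test. Of all 15855 probes, 3548 passed as higher with median centring and 2594 when centred on the probes kept, against 470 with loess. PPP3CB, the beta form of the catalytic subunit, had ratios of 0.53, 0.37, 0.95 and 0.37. All 4 arrays were above 0, with array 3 the highest, and the signals did not overlap (LIM 12.76 to 13.21, HF 12.23 to 12.55). The mean was 0.55 ± 0.12 (SE, n = 4; limma adjusted p = 0.0604), and the gene passed when only probes well above background in both channels on every array were tested (adjusted p = 0.0482). PPP3R1, the calcium-binding regulatory subunit, gave 0.64, 0.24, 0.87 and 0.15 with a mean of 0.48 ± 0.14 (SE, n = 4; limma adjusted p = 0.107). PPP3CA, the alpha form of the catalytic subunit, was at 0.53 and 0.52 on arrays 1 and 3 but at −0.14 and −0.15 on arrays 2 and 4. Its mean was 0.19 ± 0.16 (SE, n = 4; limma adjusted p = 0.481). For all 3 genes, arrays 1 and 3 stood higher than arrays 2 and 4. The median over the 3 genes was 0.48, and on arrays 1 to 4 it was 0.53, 0.24, 0.87 and 0.15. The 3 genes encode parts of 1 enzyme and were measured on the same 4 arrays, so they are not independent points.

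Of 8 partners of calcineurin and NFAT, 0 passed the test and 4 had an unadjusted p under 0.05. RCAN1, a calcineurin inhibitor that is itself induced through NFAT and is named here after its values were seen, had ratios of −2.47, −1.24, −0.69 and −2.08. Every array was far below 0, with arrays 1 and 4 the lowest, and the mean of −1.62 ± 0.31 just missed the threshold (SE, n = 4; limma adjusted p = 0.0509). NFATC1 and NFATC3, 2 of the NFAT factors, and MEF2A, a muscle transcription factor, were above 0 on all 4 arrays, with means of 0.27, 0.38 and 0.40. RCAN3, a relative of RCAN1, had ratios of 0.04, −0.58, −0.93 and −0.30 and a mean of −0.44 (unadjusted p = 0.0417 by limma). MYOZ1, MYOZ2 and MYOZ3, Z-disc proteins that bind calcineurin, each had arrays on both sides of 0.

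**Figure D3:**
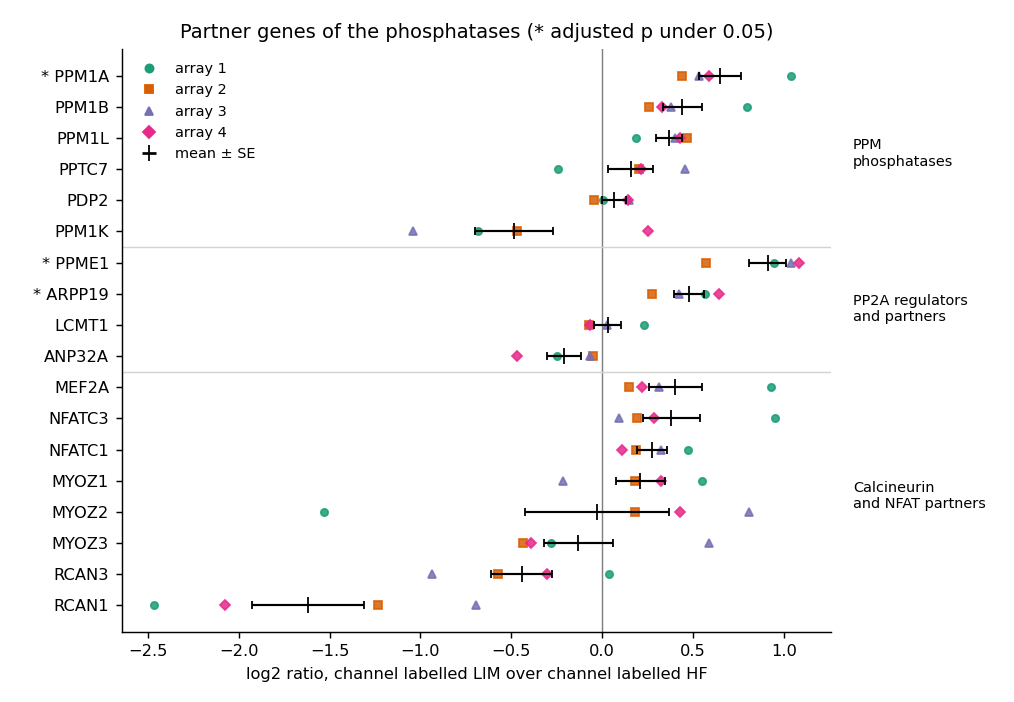
Log2 ratio of LIM over HF on each array (points) and their mean ± moderated SE (bars) for PPM phosphatases, PP2A regulators and partners, and calcineurin and NFAT partners. PPME1, ARPP19 and PPM1A passed the test above 0, and RCAN1 had the lowest mean, −1.62.

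Of the 17 PP1 genes, 0 passed the test by limma and 3 had an unadjusted p under 0.05. PPP1CA, the only catalytic PP1 gene measured, was near 0 on every array (0.06, 0.08, −0.17 and 0.01), with a mean of −0.004 ± 0.07 (SE, n = 4; limma adjusted p = 0.974; 95% confidence interval −0.18 to 0.17). The 3 genes with the widest ratios were regulatory, and each concerns a different task of the enzyme. PPP1R14C, an inhibitor of PP1 that works when phosphorylated, had ratios of 1.66, 0.47, 0.95 and 0.07. The 4 arrays were above 0 but spread from near 0 to above 1.5, and the signals of the channels lay just apart (LIM 11.09 or more, HF 11.05 or less). The mean was 0.78 ± 0.26 (SE, n = 4; limma adjusted p = 0.139).

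PPP1R3B, a glycogen-targeting subunit, was below 0 on all arrays, at −0.60, −0.17, −1.16 and −0.78. The LIM signals (7.50 to 8.03) lay below those of HF (8.20 to 8.70), and the mean was −0.68 ± 0.16 (SE, n = 4; limma adjusted p = 0.0771). With median centring the mean of PPP1R3B was −0.31 (limma adjusted p = 0.189). It passed as lower in 3 of 17 alternatives, among them centring on the probes kept (−0.57, limma adjusted p = 0.0371). PPP1R3F, the other glycogen-targeting gene measured, had a mean of 0.06. PPP1R15A, a stress-induced subunit that brings PP1 to the translation factor eIF2α, had ratios of −1.0, −0.43, −0.22 and −0.76. All 4 were below 0 and array 3 was the closest to it. The mean was −0.60 ± 0.14 (SE, n = 4; limma adjusted p = 0.0733). The channels overlapped, and the LIM signals of 6.36 to 6.74 were among the dimmest of the members. The ratio moved with the background correction: with the scanner's processed signals it was −1.67 (adjusted p = 0.0148), and with a smaller offset in the correction (16 in place of 50) it was −0.87 (adjusted p = 0.0339). It also passed as lower with median centring (−0.73, adjusted p = 0.0176), when centred on the probes kept (−0.99, adjusted p = 0.00520) and with an intensity trend and robust prior (adjusted p = 0.0347), and in all it passed in 7 of 17 alternatives.

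The remaining 13 PP1 genes had mean ratios between −0.19 and 0.20. PPP1R32, at the upper end, had ratios of −0.08, 0.27, 0.80 and −0.19, and PPP1R35, at the lower end, −0.16, −0.22, −0.52 and 0.15. Each thus had arrays on both sides of 0. PPP1R16A and PPP1R16B, which belong to the myosin-targeting class, had means of 0.12 and −0.10. PPP1R16B is also strongly expressed in endothelium, and its ratios of 0.08, 0.49, −0.69 and −0.27 stood beside medians of 7 endothelial markers of −0.43, 0.27, −0.61 and 0.00 on the same arrays. PPP1R21 and PPP1R9A were well above background on 4 arrays in LIM and on 0 in HF, so that HF was not well above background and no fold is given. Their measured ratios had means of 0.06 (limma adjusted p = 0.586) and 0.03 (adjusted p = 0.824), and with arrays centred on the probes kept they were −0.58 and −0.50. Other processing moved them the other way. With the scanner's processed signals the ratios of PPP1R21 and PPP1R9A were 0.49 and 0.39, and with the ratios deposited by the authors 0.74 and 0.56. Neither gene passed with the processed signals or the deposited ratios. With centring on the probes kept both passed as lower (limma adjusted p = 0.0441 and 0.0494). The median over the PP1 genes was −0.004.

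The 4 genes of PP4, PP5 and PP6 did not pass, and none had an unadjusted p under 0.05. PPP4C, the catalytic subunit of PP4, had ratios of 0.23, −0.04, 0.34 and 0.06 and a mean of 0.15 ± 0.08 (SE, n = 4; limma adjusted p = 0.318). PPP5C, which acts with the chaperone HSP90, had ratios of −0.28, 0.14, 0.25 and 0.02 and a mean of 0.03. PPP4R3B, a regulatory subunit of PP4, had ratios of −0.25, 0.06, −0.10 and 0.03. In both genes array 1 was the lowest and the arrays lay on both sides of 0. PPP6R3, a regulatory subunit of PP6, had ratios of −0.33, −0.27, 0.11 and −0.27 and a mean of −0.19.

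Of the 6 DUSP genes, 0 passed the test by limma and 2 had an unadjusted p under 0.05. All 6 means were below 0, with a median of −0.28, but with each array centred on its median in place of loess 5 of the 6 lay above 0. That centring moved the median of all genes to 0.35, and relative to it 5 of the 6 genes lay below (median −0.21). On single arrays the median of the 6 genes was 0.09, −0.54, −0.17 and −0.61. Single genes did not all follow this order, since DUSP26 was lowest on array 3 and DUSP23 on array 1.

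DUSP1 and DUSP10 were the inducible members measured. DUSP1, an immediate-early gene whose product turns off p38 and JNK among other MAP kinases, had ratios of −0.25, −0.96, −0.19 and −0.88. All 4 arrays were below 0, arrays 2 and 4 far below and arrays 1 and 3 close to it, and the LIM signals (12.07 to 12.88) overlapped those of HF (12.43 to 13.13). The mean was −0.57 ± 0.16 (SE, n = 4; limma adjusted p = 0.104), and with median centring it was 0.08, or −0.27 relative to all genes. DUSP10, which acts on p38 and JNK, was above 0 on arrays 1 and 3 (0.22 and 0.34) and below on arrays 2 and 4 (−0.58 and −1.20), with a mean of −0.31 ± 0.28 (SE, n = 4; limma adjusted p = 0.530). Both genes thus had their lower pair of values on arrays 2 and 4.

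Beside these inducible phosphatases, 8 of 12 measured immediate-early transcription factors were lower in LIM and 0 higher, with a median ratio of −1.79. The median of the list was −1.71, −1.89, −1.68 and −2.01 on arrays 1 to 4. The means of the list ran from −4.26 (ATF3) to −0.20 (IER2), with FOS, a subunit of AP-1, at −3.47. The mean of DUSP1, −0.57 on the same arrays and not past the test, lay within that wide span but above the list median of −1.79. Of 15 genes of the MAP kinase cascade on which the DUSP enzymes act, 0 passed the test by limma and 6 had an unadjusted p under 0.05, with a median of 0.06. MAPK3, a kinase of the growth-factor branch, had a mean of 0.10, and MAPK14, which encodes p38, was below 0 on all arrays with a mean of −0.25. SPRY2, a feedback inhibitor of the cascade, was above 0 on all arrays, at 0.53, 0.98, 0.32 and 0.31, with a mean of 0.54 ± 0.13 (SE, n = 4; limma adjusted p = 0.0787).

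The atypical DUSP genes were led by DUSP26, a phosphatase of nerve and muscle, with ratios of −0.04, −1.22, −1.51 and −0.64. Array 1 was near 0 and the other 3 were well below it. The signals did not overlap (LIM 15.18 to 15.83, HF 15.87 to 17.11), although on array 1 they nearly met. The mean was −0.85 ± 0.25 (SE, n = 4; limma adjusted p = 0.109), and with median centring it was −0.13, or −0.48 relative to all genes. DUSP11, which removes phosphates from RNA, had ratios of 0.25, −0.49, −0.16 and −0.57, with array 1 alone above 0, and a mean of −0.25. DUSP23, a small enzyme of this class, was slightly below 0 on every array, at −0.36, −0.16, −0.06 and −0.04, and DUSP19, which acts in the JNK pathway, had arrays on both sides of 0. With median centring DUSP11, DUSP19 and DUSP23 were above 0, and relative to all genes they were at −0.14, −0.30 and 0.08.

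**Figure D4:**
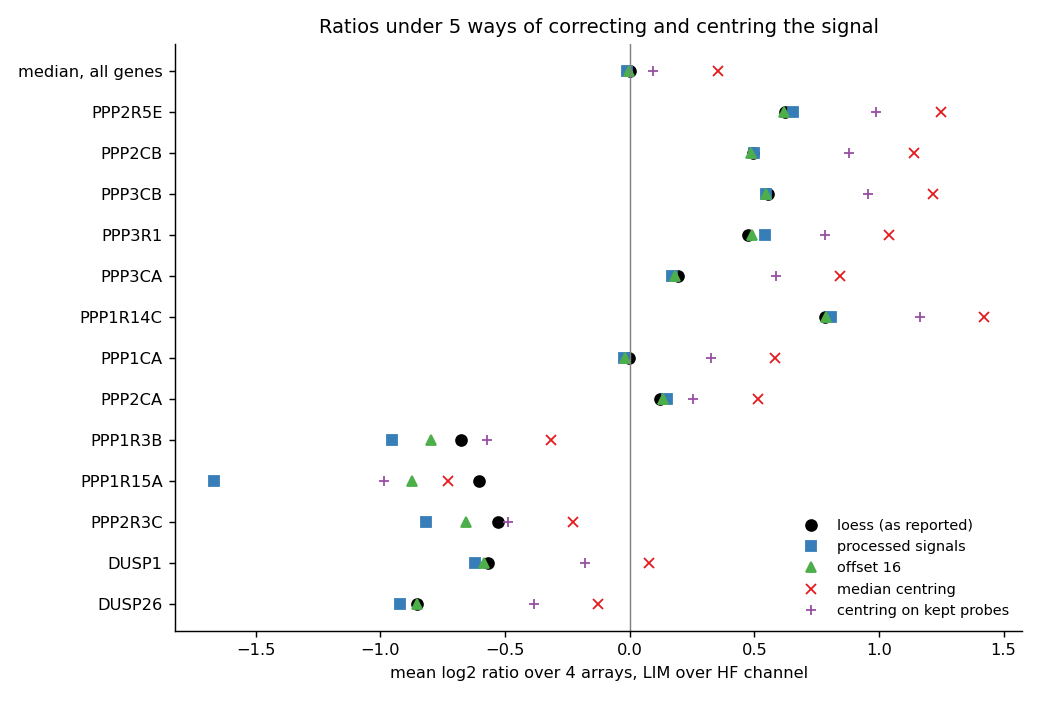
Mean log2 ratio of LIM over HF over the 4 arrays for 13 of the phosphatase genes, and the median of all genes, under 5 ways of correcting and centring the signal (1 symbol each). PPP2R5E and PPP2CB lie above 0 in all 5, PPP1R15A ranges from −1.67 to −0.60, and median centring moves the median of all genes to 0.35 and DUSP1 to 0.08.

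Markers of other cell types were read on the same arrays. Of the genes measured in each list, 1 of 6 smooth muscle markers was lower in LIM (LMOD1), 1 of 5 adipocyte markers was lower (CFD), 1 of 7 fibroblast markers was higher (COL3A1), and none of 7 endothelial, 4 macrophage, 5 lymphocyte, 3 erythrocyte or 4 nerve markers passed. The log2 of the summed signal of the fibroblast markers was 14.5 to 15.5 in LIM and 13.4 to 14.7 in HF, that of the adipocyte markers 11.7 to 12.4 and 12.2 to 12.9, and that of the macrophage markers 10.3 to 10.9 and 10.5 to 11.8. All means were below 0 for the 6 smooth muscle, 7 endothelial, 4 macrophage and 4 nerve markers. Their medians were −0.20, −0.21, −0.55 and −0.31. In the adipocyte, fibroblast, lymphocyte and erythrocyte lists the markers did not all go the same way. Of the adipocyte markers 4 had means above 0 and 1 below, with a median of 0.26. Of the fibroblast markers 4 had means above 0 and 3 below, with a median of 0.66. The part of these cells in the ratios of the phosphatase genes was not tested.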

How the data were processed

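The authors hybridised 4 two-colour Agilent arrays and deposited, for each, the scanner output of Feature Extraction 10.7.3.1 with intensity columns of both channels, and a series table of log10 ratios, which was identical to the ratio column of the scanner files. Per the labels, LIM was in Cy5 and HF in Cy3 on each array, and the 4 are biological replicates. From the deposited median foreground and background intensity, limma 3.58.1 in R 4.3.3 computed log2 ratios after normexp (offset 50) and loess (span 0.3, control spots at weight 0). The median foreground was used because the columns at hand held no mean. Non-uniform spots (5 to 10 an array) were left out and spots of a probe averaged. Probes whose spots all stood well above background on 3 or more arrays, in 1 and the same channel, were kept (15855 of 21475). Each ratio was tested against 0 by lmFit and eBayes with Benjamini-Hochberg adjustment over the kept probes. The p-values measure the spread over 4 pairs of bulls. Genes were named through the RefSeq accession of the probe (8297 probes, 7788 symbols) and represented by their brightest kept probe, by mean signal over the arrays. The scripts were tested on simulated data. Alternatives were the processed signals, offset 16, other centring, other filters, array weights, a prior with trend and robust fitting, the t-test of the methods with its 1.3-fold limit, the series table, the mean of a gene's probes, and leaving out each array. The t-test with the fold limit was read at its unadjusted p, and the same t-test was also read after adjustment. Values on every array were given for members past the test, catalytic subunits, inducible DUSP genes, the member the study lists by name, and up to 5 further members per family by size of the mean ratio. Of the other lists, genes past the test could be named; others named there, and further members described, were picked after their values were seen. The members and the gene lists were chosen with earlier results of these data known. Probe sequences and genome coordinates are not used here.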

Additional observations from a re-analysis of the deposited data

Results flagged for a closer look

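In 3 of the 45 values checked, 1 array stood apart from the other 3 by more of the range than Dixon's 95% limit for 4 values allows, where chance gives about 2.25. PPP1R18 (gap 0.838 of the range) was at 0.35 on array 2 and at −0.07 to 0.00 on the others. PPP1R1B (0.918) was at −0.15 on array 1 and at 0.07 to 0.09 on the others. PPP6R3 (0.869), a regulatory subunit of PP6, was at 0.11 on array 3 and at −0.33 to −0.27 on the others. None of the 3 genes passed the test.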

How the results depend on the processing

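The number of phosphatase genes past the test, 2 higher and 0 lower, was 1 and 1 with the processed signals and with the series table, 2 and 1 with offset 16, 9 and 1 with median centring, 8 and 4 when arrays were centred on the probes kept, 2 and 2 with an intensity trend and robust prior, 3 and 2 by the methods' t-test with its fold limit, 0 and 0 by that t-test after adjustment, and 0 with any 1 array left out. For all probes, 470 higher and 398 lower (54.1% higher; 4326 at an unadjusted p under 0.05) became 3548 and 271 (92.9%) with median centring, 2594 and 2890 (47.3%) when centred on the probes kept, 733 and 575 with the trend, 819 and 660 by the t-test with fold, 1 and 0 by the t-test adjusted, 811 and 536 (60.2%) with the series table, 179 and 203 genes with the mean of a gene's probes, and 0 to 15 and 0 to 36 with 1 array left out (15 and 36 without array 3, 0 without array 1, 2 or 4). Median centring moved the median ratio of all members to 0.50, of PP1 to 0.41, of PP2A to 0.56, of calcineurin to 1.04, and of all DUSP and of the inducible DUSP genes to 0.14; centring on the probes kept moved all members to 0.24, PP1 to 0.15 and PP2A to 0.30. PPP1CA was 0.58 (limma adjusted p = 0.0410) with median centring, against a mean near 0. With centring on the probes kept, PPP1R21 was −0.58 (limma adjusted p = 0.0441) and PPP1R9A −0.50 (limma adjusted p = 0.0494), against means near 0. With the series table PPP1R21 and PPP1R9A were at 0.74 and 0.56 and did not pass. The cause of these shifts was not tested. The 3 calcineurin genes all passed under both centrings. Under these centrings the members past the test are out of 39 and the probes out of 15855, and both totals rose. PPP2R5E lost its call by the t-test adjusted (0.114) and PPP2CB by the t-test adjusted (0.155) and the series table (0.0684). The Aquantile step leaves ratios as they are, and all arrays were on 1 slide, so no slide block could be fitted. The number of arrays limits what could pass, and the ratio of the dim probe of PPP1R15A moved with the background correction. Each array pairs 1 LIM with 1 HF bull, so the test of the ratios against 0 is itself the paired analysis.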
